A study of Mus musculus with 9 samples.

Results

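Sox9, Sox5 and Sox6 are the SOX chondrogenic trio, 3 of the 43472 genes in a count table of mouse skeletal tissue, and were taken by symbol from that table. All 3 were among the 14257 genes with enough reads to be tested. RNA sequencing was done on 9 libraries from C57BL/6J mice in 3 groups of 3. The ImC group is immature cartilage, labelled as immature chondrocytes. The MatC group is mature cartilage, labelled as mature chondrocytes, and the Bone group is bone, labelled as osteoblasts. No genotype, treatment or age is given in the labels, and they do not tell whether a group's 3 libraries stem from different mice; the p-values rest on the spread among these libraries, which may be technical. The RNA was amplified before library construction.

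SOX proteins are transcription factors that bind and bend DNA through an HMG box. SOX9 is required for chondrocytes to form and carries a transactivation domain of its own. SOX5 and SOX6 lack such a domain, bind DNA as dimers through a coiled coil, and act beside SOX9 on the enhancers of cartilage matrix genes such as Col2a1 and Acan. In the growth plate the trio is known for proliferating chondrocytes, while RUNX2, MEF2C and SP7 (osterix) are known for hypertrophic chondrocytes and osteoblasts.

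The members fall into separate subgroups of the SOX family, SoxE (Sox9) and SoxD (Sox5 and Sox6), and the coding sequence of the HMG box shows how far apart they stand and whether their reads could be mistaken for each other. The 240 bases over the HMG box are given from GENCODE transcripts on GRCm38 (the assembly also called mm10), 5′ to 3′ in the sense of each gene. Each stretch is coded by 2 exons, between chr11:112782880-112783912 on the plus strand for Sox9, chr6:143835296-143841296 on the minus strand for Sox5 and chr7:115486648-115489785 on the minus strand for Sox6. Capitals mark bases that differ from at least 1 of the other members at the same place.
Sox9: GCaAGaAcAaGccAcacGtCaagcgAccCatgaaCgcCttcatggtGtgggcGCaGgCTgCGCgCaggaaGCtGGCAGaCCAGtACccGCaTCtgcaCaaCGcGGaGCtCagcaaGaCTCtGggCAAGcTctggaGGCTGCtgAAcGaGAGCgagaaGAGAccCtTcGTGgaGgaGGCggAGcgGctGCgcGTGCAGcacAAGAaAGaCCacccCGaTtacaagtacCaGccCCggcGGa
Sox5: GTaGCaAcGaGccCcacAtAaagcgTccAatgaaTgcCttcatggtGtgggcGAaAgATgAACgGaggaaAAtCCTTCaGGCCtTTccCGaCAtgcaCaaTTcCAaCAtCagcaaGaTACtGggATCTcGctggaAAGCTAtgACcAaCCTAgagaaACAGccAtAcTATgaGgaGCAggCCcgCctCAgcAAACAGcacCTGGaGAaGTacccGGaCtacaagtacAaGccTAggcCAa
Sox6: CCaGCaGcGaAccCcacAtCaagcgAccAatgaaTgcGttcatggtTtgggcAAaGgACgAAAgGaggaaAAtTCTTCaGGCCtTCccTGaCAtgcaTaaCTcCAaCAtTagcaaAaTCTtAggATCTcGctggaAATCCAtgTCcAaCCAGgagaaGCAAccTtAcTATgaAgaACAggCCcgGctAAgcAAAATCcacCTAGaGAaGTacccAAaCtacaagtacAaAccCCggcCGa
Sox5 and Sox6 had the same base at 196 of 240 positions (81.7%). Sox9 matched Sox5 at 149 positions (62.1%) and Sox6 at 139 (57.9%), and 127 positions (52.9%) were the same in all 3. Over the whole transcripts the longest run shared by Sox5 and Sox6 was 23 bases, against 18 for Sox9 and Sox5 and 14 for Sox9 and Sox6. No stretch of 50 bases was common to any pair of members. Of the 14537 such stretches of Sox5, 1306 (8.98%) occurred in another gene, 1284 of them in the overlapping antisense gene Sox5os1. That gene had 0 reads in every library. This does not show it to be silent, since reads over overlapping exons may have been counted to neither gene.

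Sox9 lies at chr11:112782224-112787760 on the plus strand, with 1 annotated transcript. Sox5 covers chr6:143828425-144781977 and Sox6 covers chr7:115470872-116038796, both on the minus strand, with 14 and 16 transcripts. Reads were summed per gene, so levels of single isoforms were not analysed here.

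Library totals ran from 7913684 to 23159547 reads. Mitochondrial genes took 32.02% to 55.04% of reads in ImC, 33.69% to 82.31% in MatC and 7.237% to 8.905% in Bone. The highest share was in MatC replicate 3, where 14940 genes had a read, against 17535 or more in the other libraries. The summed level of 6 chondrocyte markers (such as Col2a1, Acan and Matn1) was 12210 to 16770 CPM for ImC, 7920 to 18670 for MatC and 327.8 to 748.2 for Bone. That of 9 osteoblast and osteocyte markers was 153.3 to 377.1, 709.7 to 15300 and 38000 to 43490 CPM. CPM are reads per 1000000, with library sizes scaled by TMM (trimmed mean of M-values). Col10a1, the collagen of hypertrophic cartilage, averaged 0.5413 (ImC), 2170 (MatC) and 1.669 CPM (Bone; n = 3 each), so these markers sort the groups as they are labelled. Of the other hypertrophic markers listed, Ihh averaged 156.3 CPM in MatC and 3.014 in Bone. Mmp13 (33.16 and 32.13 CPM) and Panx3 (580.8 and 462) overlapped between MatC and Bone. MatC libraries nevertheless carried osteoblast markers at very different levels: 3820, 15300 and 709.7 CPM in replicates 1 to 3.

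Sox9 was the most abundant of the 3 in both cartilage groups. It stood at 868.9, 885.2 and 550.4 CPM in the ImC libraries, at 458.3, 199.6 and 628.2 in MatC, and at 28.04, 44.61 and 38.4 in Bone. The cartilage groups overlapped, since MatC replicate 3 lay above ImC replicate 3, while every Bone library was below every cartilage library. The means were 768.2 ± 188.7, 428.7 ± 215.9 and 37.02 ± 8.368 CPM (SD, n = 3). The lowest MatC library, replicate 2, was also the one with the lowest summed chondrocyte markers (7920 CPM) and the highest summed osteoblast markers (15300 CPM) of its group, and the part of this in the Sox9 level was not tested.

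Sox5 separated all 3 groups. Its levels were 301.9, 215.7 and 374.3 CPM in ImC, 71.02, 53.51 and 78.64 in MatC, and 6.713, 5.223 and 5.124 in Bone. No library of one group reached the range of the next, and the Bone values rested on 124, 61 and 91 reads. Means were 297.3 ± 79.4, 67.72 ± 12.89 and 5.687 ± 0.8905 CPM (SD, n = 3).

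Sox6 spanned the smallest range. It was at 156.7, 210.6 and 110.5 CPM in ImC, at 55.03, 39.69 and 89.95 in MatC, and at 39.47, 36.05 and 40.71 in Bone. Every ImC library was above every other library, whereas MatC replicate 2 lay within the Bone range. The means were 159.3 ± 50.06, 61.56 ± 25.76 and 38.74 ± 2.415 CPM (SD, n = 3), so that the Bone mean of Sox6 was close to that of Sox9.

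**Figure D1:**
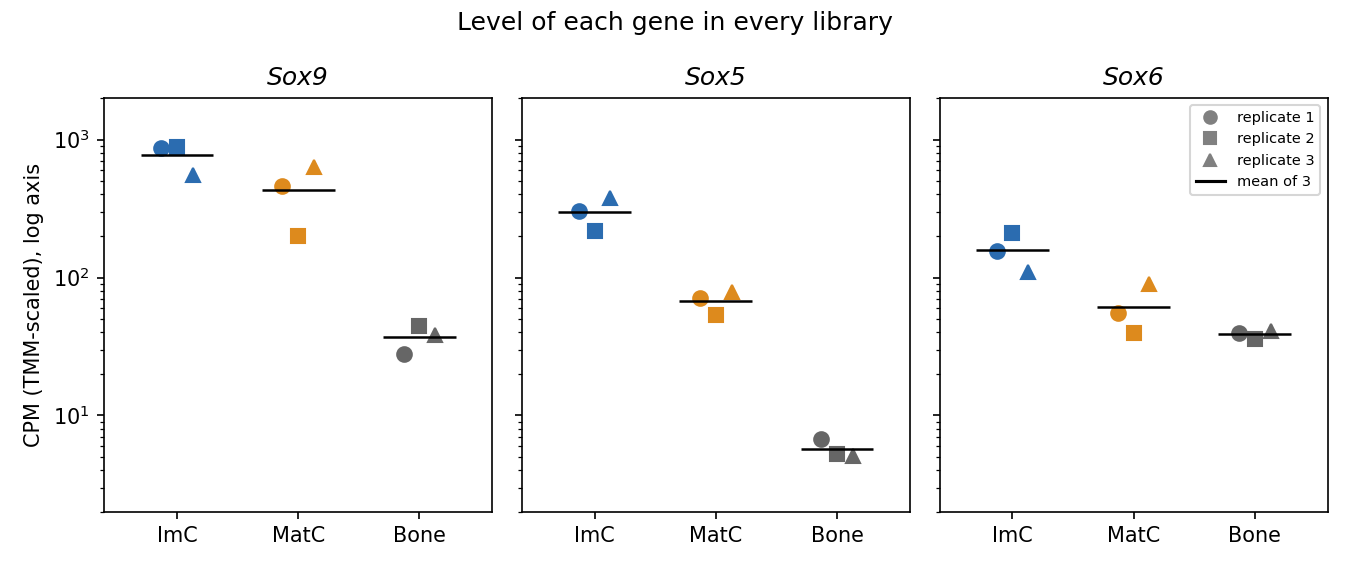
CPM of Sox9, Sox5 and Sox6 on a log axis in each of the 9 libraries, by group; symbols are replicates 1 to 3 and lines are means of 3. Sox5 forms 3 separate levels, the Sox9 values of ImC and MatC overlap, and the Sox6 values of MatC reach down to those of Bone.

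Because the transcripts differ in length (4135, 7243 and 8668 bases for the longest coding transcript), levels of different genes were compared per kilobase. On that scale Sox9 had means of 185.8 ± 45.64 CPM per kb in ImC, 103.7 ± 52.2 in MatC and 8.952 ± 2.024 in Bone (SD, n = 3). Sox5 had 41.05 ± 10.96, 9.35 ± 1.779 and 0.7851 ± 0.1229 CPM per kb, and Sox6 had 18.37 ± 5.775, 7.101 ± 2.972 and 4.469 ± 0.2787. The means were in the order Sox9, Sox5, Sox6 in both cartilage groups, and in Bone Sox6 stood above Sox5. In MatC the means of Sox5 and Sox6 differed by less than the SD of Sox6, and in replicate 3 the genes stood at 10.86 and 10.38 CPM per kb. With the union of all exons as length, which is larger for Sox5 and Sox6, the means had the same order (Sox5 at 20.68, 4.711 and 0.3956, Sox6 at 10.74, 4.15 and 2.612 CPM per kb), but in MatC replicate 3 Sox6 was above Sox5, at 6.065 against 5.47. How evenly the amplified RNA covered these long transcripts is not known.

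Between immature and mature cartilage, Sox5 had the largest estimated fall, though unequal change of the members in this step was not shown. Differences were tested with edgeR's quasi-likelihood test over all 9 libraries and all 14257 genes, with Benjamini-Hochberg adjustment and a call at an adjusted p under 0.05. Sox5 was lower in MatC by 2.14 ± 0.30 on the log2 scale (SE), a 4.39-fold difference, with adjusted p = 0.00444 in edgeR. Sox6 fell by 1.38 ± 0.35, or 2.6-fold, with adjusted p = 0.0419 in edgeR. For Sox9 the log2 fold change was -0.84 ± 0.42 (unadjusted p = 0.0712, adjusted p = 0.248 in edgeR). A fall was thus not shown, and neither was an equal level. So 2 of the 3 members were called lower, where 2.29% of all tested genes were. Both also had groups that did not overlap with MatC lower, which held for 12.5% of all genes.

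The Sox6 call was less firm than that of Sox5. Sox5 was called under all 18 alternatives, which changed the scaling, filter, test or libraries, with log2 fold changes from -2.60 to -1.94. The Sox6 call was lost in 10 of 18: with the library size as the only scaling, with a block for the replicate number, with only the 2 groups in the fit, and without any one of ImC replicate 1, ImC replicate 2, MatC replicate 1, MatC replicate 2 and each Bone library. Over the fits that left out 1 library its log2 fold change ran from -1.73 to -1.12 and its adjusted p from 0.0181 to 0.112. Sox9 was called in none of the 18, with log2 fold changes from -1.47 to -0.50. The value nearest 0 came without MatC replicate 2. In bulk tissue, fewer cells expressing a gene and less RNA per cell cannot be told apart.

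From mature cartilage to bone the order of the estimates changed. Sox9 fell by 3.53 ± 0.46 on the log2 scale, 11.6-fold (adjusted p = 0.00243 in edgeR). Sox5 fell by 3.57 ± 0.32, or 11.9-fold (adjusted p = 0.000314 in edgeR). Sox6 had a log2 fold change of -0.66 ± 0.35 (unadjusted p = 0.0848, adjusted p = 0.289 in edgeR), and its groups overlapped. Of all tested genes, 4.69% were called lower in this comparison, and 17.7% had groups that did not overlap with Bone lower, as Sox9 and Sox5 had.

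The Sox6 value in that step rested on few libraries. Without MatC replicate 3, the library with the highest Sox6 level of its group, the log2 fold change was -0.26. With the library size as the only scaling it was 0.48, in the opposite direction, and under that scaling the value for Sox9 was -2.47 (adjusted p = 0.0823 in edgeR) and was not called. That scaling moved the median log2 fold change of all genes from -0.03 to 0.95.

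Across the whole range, from immature cartilage to bone, all 3 members fell. The log2 fold change was -5.70 ± 0.35 for Sox5 (52.1-fold, adjusted p = 2.49e-05 in edgeR), -4.38 ± 0.48 for Sox9 (20.8-fold, adjusted p = 0.000291) and -2.04 ± 0.36 for Sox6 (4.11-fold, adjusted p = 0.00306). Here 16.8% of all genes were called lower, and 28.8% had groups that did not overlap with Bone lower. The Sox6 call was lost with the library size as the only scaling (adjusted p = 0.089 in edgeR), and Sox9 and Sox5 were called under all 18 alternatives. This comparison shares its libraries with the other comparisons, so its values are the sum of both steps and not further evidence.

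The place of mature cartilage between the other groups is given as a description. The edgeR log2 fold change of MatC against ImC was divided by that of Bone against ImC, so that ImC is 0 and Bone is 1. On that scale MatC stood at 0.19 for Sox9, 0.37 for Sox5 and 0.68 for Sox6. A total of 2270 genes were called lower in Bone than in ImC and were lower by at least 1 on the log2 scale. Among them the median place of MatC was 0.42, with quartiles of 0.2 and 0.63. When 1 library was left out, MatC stood at 0.11 to 0.28 for Sox9, 0.35 to 0.39 for Sox5 and 0.56 to 0.87 for Sox6, so Sox9 and Sox6 lay on either side of those quartiles depending on the library. Of 21 cartilage genes known to be activated by the trio, 19 met both conditions, with a median place of 0.06.

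The ratio of a pair of genes within a library does not depend on scaling. Sox6 had 0.18 to 0.238 reads per Sox9 read in ImC, 0.12 to 0.199 in MatC and 0.808 to 1.41 in Bone. The Bone range lay above both others. The mean log2 ratio in Bone was higher than that in MatC by 2.82 and than that in ImC by 2.38. Sox5 had 1.02 to 3.39 reads per Sox6 read in ImC, 0.874 to 1.35 in MatC and 0.126 to 0.17 in Bone. Bone was lower here, with log2 differences of -2.97 against MatC and -3.68 against ImC. The exact two-sided permutation p was 0.1 for each of these 4 differences, the smallest that 3 against 3 libraries can give, and the adjusted p over 9 ratio tests was 0.18.

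Sox5 and Sox9 kept closer to each other. Sox5 had 0.244 to 0.68 reads per Sox9 read in ImC, 0.125 to 0.268 in MatC and 0.117 to 0.239 in Bone. The log2 difference was -1.16 for MatC against ImC (exact permutation p = 0.2, adjusted p = 0.257) with overlapping groups. It was -0.15 for Bone against MatC (exact permutation p = 0.6, adjusted p = 0.6), and this value took the opposite sign without MatC replicate 2 (0.16) or Bone replicate 2 (0.05). For Bone against ImC it was -1.31 without overlap (exact permutation p = 0.1, adjusted p = 0.18). The 2 ratios of MatC against ImC that involve Sox6 were -0.44 to Sox9 (exact permutation p = 0.2, adjusted p = 0.257) and -0.71 for Sox5 to Sox6 (exact permutation p = 0.3, adjusted p = 0.337). Unequal change of the members in that step was thus not shown. The test could not have shown it at 0.05 in any step, since 3 against 3 libraries give a p of at least 0.1.

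**Figure D2:**
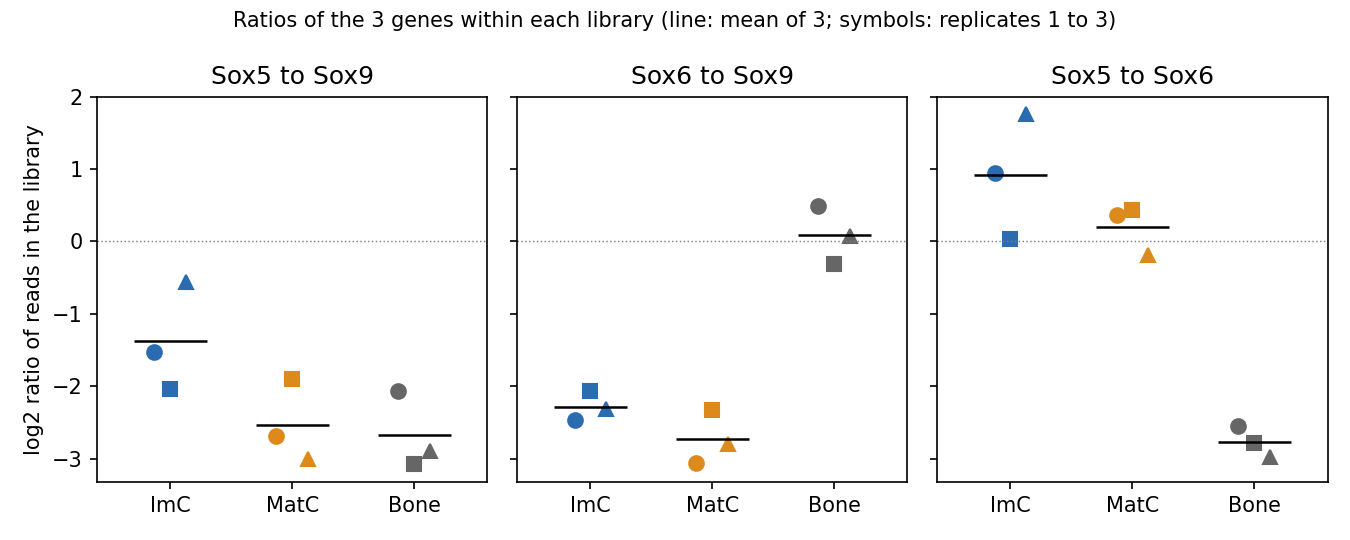
Log2 ratio of the reads of a pair of members within each library, by group; symbols are replicates 1 to 3, lines are means of 3 and the dotted line marks equal reads. The Bone libraries stand apart in both ratios that hold Sox6 and overlap with MatC in the ratio of Sox5 to Sox9.

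Set against Col2a1, the type II collagen of cartilage, the members also differed, a comparison chosen after the values were seen and given with no test. Per 1000 Col2a1 reads there were 103, 103 and 56.3 Sox9 reads in the ImC libraries, 54.6, 41.8 and 74.8 in MatC, and 41.1, 115 and 129 in Bone. All 3 groups overlapped for Sox9. Sox5 had 35.9, 25.2 and 38.3 reads per 1000 Col2a1 reads in ImC, 8.46, 11.2 and 9.36 in MatC, and 9.85, 13.5 and 17.2 in Bone, so ImC alone stood apart. Sox6 had 18.7, 24.6 and 11.3 in ImC, 6.55, 8.32 and 10.7 in MatC, and 57.9, 92.9 and 137 in Bone. The 3 Bone libraries, with their low Col2a1, were above all cartilage libraries for Sox6.

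Sox6 is also expressed in red cell precursors and skeletal muscle, and Sox5 and SoxE genes in neural cells, so markers of those cells were summed beside the members. The 10 erythroid markers reached 10.5 to 1426 CPM in ImC, 874.1 to 3510 in MatC and 6440 to 9213 in Bone. Of these 10, 1 to 3 were at 0 in each ImC library, 0 to 5 in MatC and 0 to 1 in Bone. The 8 muscle markers summed to 8.24 to 53.49, 34.11 to 369.4 and 2.911 to 117.6 CPM, with 1 to 3, 0 and 0 to 2 of them at 0. The 11 Schwann cell and neuron markers summed to 11.37 to 44.37, 26.29 to 92.62 and 6.593 to 13.48 CPM, with 2 to 3, 0 to 5 and 0 to 4 at 0. The erythroid sum was highest in the Bone libraries, where the ratio of Sox6 to Sox9 was high. It was nearly all globin, with Bone means of 2005 CPM for Hba-a1, 1929 for Hba-a2, 2008 for Hbb-bs and 1701 for Hbb-bt. The factors of red cell precursors on the list were near 0 throughout, Klf1 with means of 0.5078, 0.5258 and 0.2253 CPM in ImC, MatC and Bone, and Gata1 with 0.02374, 0.376 and 0.2996. The part of other cells in the Sox6 to Sox9 ratio was not tested.

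The SOX family as a whole had 20 listed genes in the table, of which 18 had a read and 12 were tested. Sox9 had the most reads of the family in all 6 cartilage libraries, with 34.9% to 47.5% of family reads in ImC and 37.6% to 63.2% in MatC. In Bone its share was 14.2% to 20.8%, and it came first in replicate 2 only. Sox5 took 9.91% to 23.7% of family reads in ImC, 7.9% to 10.1% in MatC and 2.09% to 3.4% in Bone. Sox6 took 7% to 9.67% in ImC, 6.81% to 9.04% in MatC and 16.6% to 20% in Bone.

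Within SoxD, the subgroup of Sox5, Sox6 and Sox13, the composition turned over. Sox5 made up 50.6% to 77.1% of SoxD reads in ImC, 46.3% to 56.7% in MatC and 10.8% to 14.1% in Bone. Sox6 made up 22.8% to 49.4%, 42.1% to 52.9% and 83.1% to 86%. Sox13 was at most 3.21% in any library. Its log2 fold change was 1.99 ± 0.71 in MatC against ImC (adjusted p = 0.117 in edgeR) and -0.01 ± 0.66 in Bone against MatC.

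Within SoxE, Sox9 kept 89.2% to 96.1% of reads in ImC, 96% to 98.2% in MatC and 96.9% to 97.7% in Bone. Sox8, which can act redundantly with Sox9 in other tissues, stood at 42.99, 33.55 and 54.05 CPM in ImC, 7.807, 8.248 and 8.203 in MatC, and 0.5414, 0.8562 and 0.8446 in Bone. Its groups did not overlap, as for Sox5. Sox8 fell by 2.43 ± 0.31 from ImC to MatC (adjusted p = 0.00291 in edgeR) and by 3.43 ± 0.34 from MatC to Bone (adjusted p = 0.000463). The second call was lost in 1 of 18 alternatives and the first in none. Sox10, the SoxE factor of the neural crest and glia, fell by 4.72 ± 1.08 from ImC to Bone (adjusted p = 0.00952 in edgeR), and neither single step was called (adjusted p = 0.146 and 0.265).

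The SoxC genes, known in progenitor cells, went separate ways. Sox11 was at 408, 771.3 and 394.4 CPM in ImC, 147.6, 84.66 and 50.35 in MatC, and 55.38, 41.87 and 78.32 in Bone. It fell by 2.47 ± 0.46 from ImC to MatC (adjusted p = 0.0146 in edgeR, lost in 3 of 18 alternatives, at most 0.0518 without 1 library) and had more reads than Sox5 in every ImC library. Sox4 was at 11.92, 28.54 and 31.98 CPM in ImC against 44.34, 90.23 and 127 in MatC. It rose by 1.85 ± 0.44 (adjusted p = 0.0348 in edgeR), a call lost in 9 of 18 alternatives. Sox12 was called only from ImC to Bone, with a log2 fold change of -1.29 ± 0.44 (adjusted p = 0.0469 in edgeR, lost in 9 of 18).

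The SoxF genes Sox7, Sox17 and Sox18, factors of blood vessel endothelium, summed to 0.2482 to 0.4166 CPM in ImC, 0.8486 to 32 in MatC and 12.94 to 29.9 in Bone. All 3 were called higher in MatC than in ImC, Sox18 by 5.22 ± 1.03 (adjusted p = 0.0172 in edgeR) and Sox7 by 5.28 ± 1.30 (adjusted p = 0.0383). Sox17 had 0 reads in ImC, and its MatC mean was at least 21.7-fold higher if ImC is set at 3 reads in total (adjusted p = 0.0393 in edgeR). MatC replicate 3 also had 0 Sox17 reads, so the groups overlapped. The calls were lost in 4 of 17 alternatives for Sox18 and in 10 of 17 for both others. The 6 endothelial markers summed to 0.8935 to 10.54 CPM in ImC, 11.03 to 172.9 in MatC and 31.62 to 105.5 in Bone, and their part in these values was not tested.

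Over the 9 tested family genes other than the trio, 4 rose and 2 fell from ImC to MatC with a median log2 fold change of 1.85, against a median of 0.03 over all genes, of which 5.41% were called higher and 2.29% lower. In edgeR 0 rose (0 also at an unadjusted p under 0.05, in limma-voom and in DESeq2) and 1 (Sox8) fell from MatC to Bone, with a median of -0.01 against -0.03 over all genes, of which 1.36% were called higher and 4.69% lower.

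**Figure D3:**
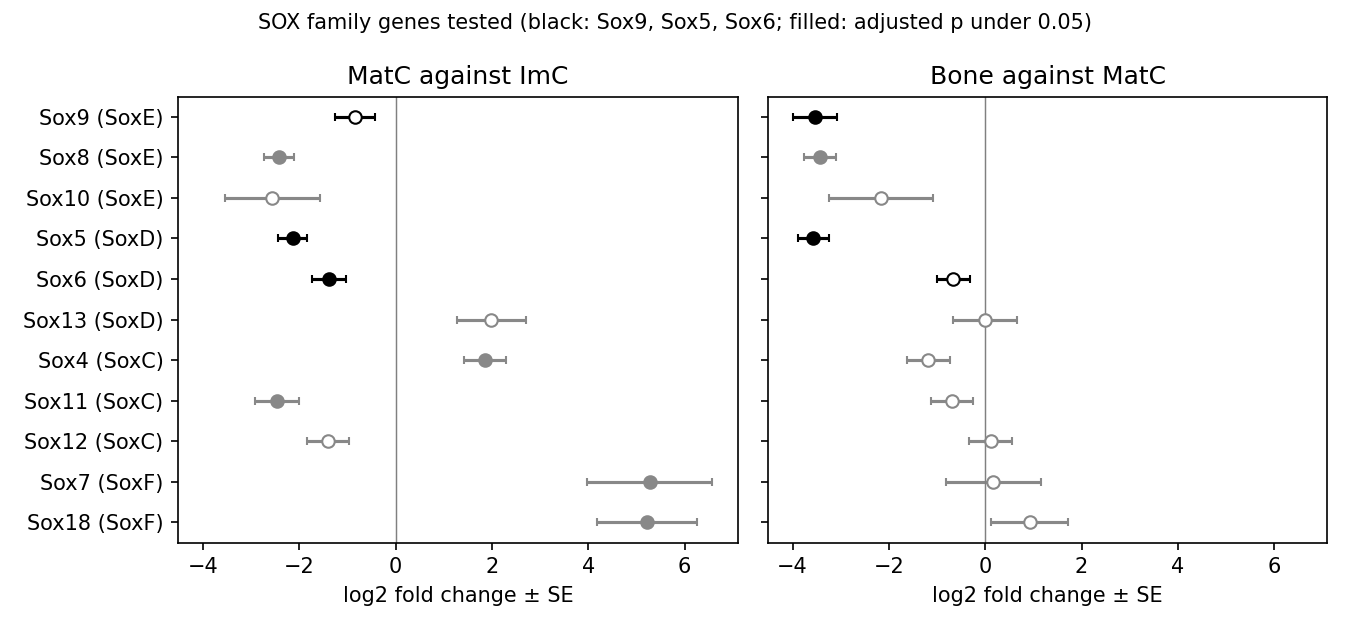
Log2 fold changes with SE of the SOX genes tested, for MatC against ImC and Bone against MatC; black points are Sox9, Sox5 and Sox6, grey points the other family genes, and filled points had an adjusted p under 0.05. Sox17, with 0 reads in ImC, is not drawn. Sox8 lies beside Sox5 in both comparisons.

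The cartilage genes that the trio is known to activate were listed as 21 genes, and all were tested. From ImC to MatC 1 rose and 1 fell, where 5.41% of all genes were called higher and 2.29% lower, shares near those of the list. The median log2 fold change was -0.31 against 0.03 over all genes. Col2a1 was at 8402, 8574 and 9782 CPM in ImC and at 8396, 4769 and 8400 in MatC (log2 fold change -0.31 ± 0.42, adjusted p = 0.69 in edgeR). Acan, which encodes the core protein of aggrecan, was at 1129, 865 and 1347 CPM in ImC and 969, 630 and 1520 in MatC (log2 fold change -0.10 ± 0.45, adjusted p = 0.918 in edgeR). These ranges overlapped for Acan, and for Col2a1 the highest MatC library lay just under the lowest ImC library.

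Of the pair that was called, Pth1r, the receptor for parathyroid hormone-related protein, rose. It was at 148.1, 100.2 and 576.1 CPM in ImC and 1162, 2509 and 7125 in MatC, a log2 fold change of 3.71 ± 0.81 (adjusted p = 0.025 in edgeR). Ucma, a small secreted cartilage protein of the upper growth plate, was at 13.83, 21 and 4.629 CPM in ImC and 0.6821, 1.198 and 0 in MatC, and fell by 4.15 ± 0.85 (adjusted p = 0.0194 in edgeR). Neither was called without ImC replicate 1 or without ImC replicate 2, and the Ucma call was also lost without MatC replicate 1. Leaving out 1 library gave 0 to 3 genes that fell and 0 to 2 that rose, with 3 falling without MatC replicate 3.

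From MatC to Bone 18 of the 21 fell and 0 rose in edgeR (0 also at an unadjusted p under 0.05, in limma-voom and in DESeq2), where 4.69% of all genes were called lower and 1.36% higher. The median log2 fold change was -5.99 against -0.03 over all genes. Col9a3 fell by 9.19 ± 0.53 (adjusted p = 3.73e-05 in edgeR), Col9a1 fell by 9.10 ± 0.68 and Col9a2 fell by 7.61 ± 0.62, the 3 chains of type IX collagen on the fibril surface. Acan fell by 9.83 ± 0.66 (adjusted p = 9.67e-05 in edgeR) to 0.5955, 0.8562 and 1.914 CPM. No read of Scrg1 was counted in Bone, a level at least 687-fold lower. Sox9, with 11.6-fold, and Sox5, with 11.9-fold, thus had smaller log2 differences in size than the median of the list, and Sox6 had a smaller one still. Leaving out 1 library gave 13 to 19 genes that fell.

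Not every listed gene followed. Col11a1, a minor fibrillar collagen that other skeletal cells also make, was at 2342 to 3692 CPM in MatC and 2126 to 2699 in Bone (log2 fold change -0.42, adjusted p = 0.512 in edgeR). The value for Col11a2 was -1.54 (adjusted p = 0.137 in edgeR). Ucma, with 26 reads over MatC and 1 over Bone, had -4.64 ± 1.22 and was not called either (adjusted p = 0.0517 in edgeR). Pth1r fell by 3.43 ± 0.80 from MatC to Bone (adjusted p = 0.0339 in edgeR, lost in 6 of 18 alternatives) and had a log2 fold change of 0.28 between ImC and Bone (adjusted p = 0.794). From ImC to Bone 19 of the 21 fell and 0 rose by the same 4 counts, where 16.8% of all genes were called lower and 14.3% higher. The median was -8.33 against -0.02 over all genes.

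**Figure D4:**
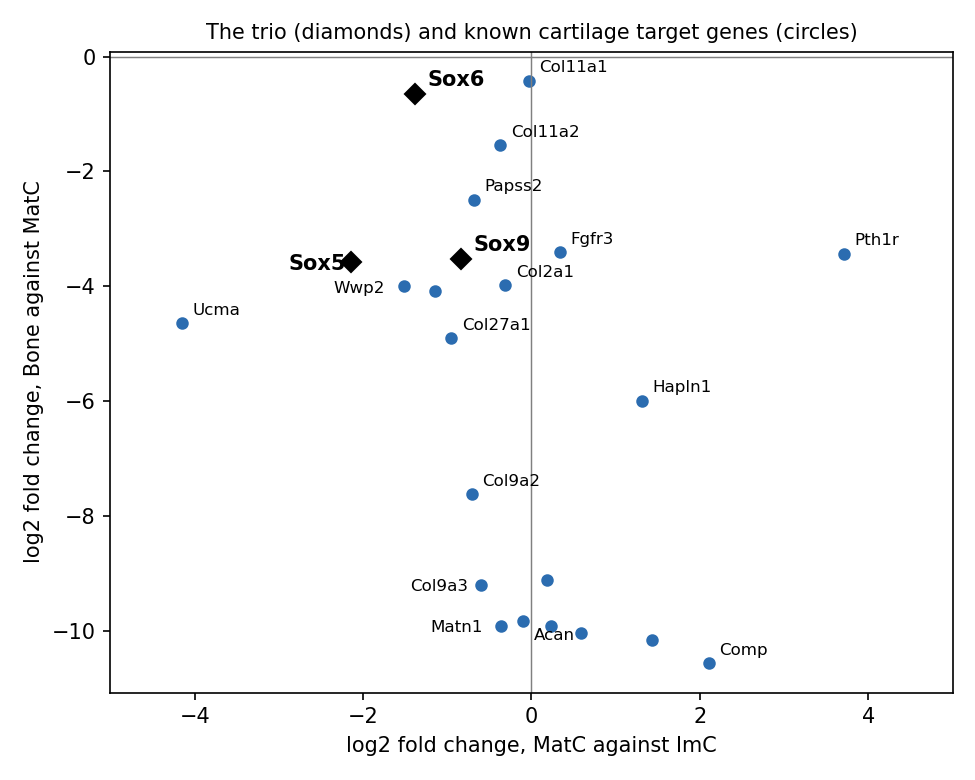
Log2 fold change of MatC against ImC (horizontal) and of Bone against MatC (vertical) for 20 cartilage genes known as targets of the trio (circles) and for the trio (diamonds); Scrg1, with 0 reads in Bone, is not drawn. Most circles lie near 0 on the horizontal axis and far below 0 on the vertical one. Sox5, Sox6 and, less far, Sox9 lie left of 0, and Sox6 lies near the top.

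Cofactors, modifiers and upstream factors of SOX9 were listed as 20 genes, of which 19 were tested. From ImC to MatC 3 rose and 0 fell in edgeR (1 at an unadjusted p under 0.05, 0 in limma-voom and in DESeq2), where 5.41% of all genes were called higher and 2.29% lower. The median log2 fold change was 0.04 against 0.03 over all genes. Maf, whose protein c-MAF binds and cooperates with SOX9, was at 1.416, 2.829 and 13.89 CPM in ImC and 176.2, 139.6 and 147.7 in MatC. It rose by 4.68 ± 0.77 (adjusted p = 0.00876 in edgeR) and was called in all 18 alternatives. Prkg2, the kinase cGKII that inhibits SOX9 in the growth plate, was at 45.24, 11.52 and 33.4 CPM in ImC, 134, 88.05 and 168 in MatC, and 9.583, 11.39 and 11.49 in Bone. MatC was above both other groups. Prkg2 rose by 2.11 ± 0.46 into MatC (adjusted p = 0.0241 in edgeR, lost in 3 of 18 alternatives, 1 of them without MatC replicate 1) and fell by 3.58 ± 0.49 into Bone (adjusted p = 0.00294, lost in 1 of 18). Ppargc1a, the coactivator PGC-1alpha, rose by 2.23 ± 0.54 into MatC (adjusted p = 0.0353 in edgeR), and this call was lost in 9 of 18 alternatives.

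From MatC to Bone Prkg2 alone was called in this list, with 0 genes that rose in edgeR (1 at an unadjusted p under 0.05, 0 in limma-voom and in DESeq2), where 4.69% of all genes were called lower and 1.36% higher. The median was -0.36 against -0.03 over all genes. From ImC to Bone 4 rose and 3 fell, with a median of -0.21 against -0.02 over all genes, where 14.3% of all genes were called higher and 16.8% lower. Maf rose by 3.38 ± 0.73 and Ppargc1a by 2.31 ± 0.53 (adjusted p = 0.00751 and 0.0101 in edgeR), both called in all 18 alternatives. Ctnnb1, which encodes beta-catenin, rose by 2.45 ± 0.71 and Prkaca, a catalytic subunit of protein kinase A, by 1.12 ± 0.34 (adjusted p = 0.0251 and 0.0326 in edgeR, lost in 5 and 7 of 18). Bmpr1b, a BMP receptor, fell by 4.22 ± 0.87 (adjusted p = 0.0063 in edgeR, lost in none). Prkg2 fell by 1.47 ± 0.45 and the Mediator subunit Med25 by 1.38 ± 0.46 (adjusted p = 0.0323 and 0.0424 in edgeR, lost in 7 and 11 of 18).

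The 16 listed regulators of chondrocyte maturation and osteoblasts were all tested. From ImC to MatC 6 rose and 0 fell in edgeR (1 at an unadjusted p under 0.05, 0 in limma-voom and 1 in DESeq2), where 5.41% of all genes were called higher and 2.29% lower. The median log2 fold change was 2.34 against 0.03 over all genes. Mef2c rose by 3.79 ± 0.32, Dlx3 by 6.90 ± 0.73 and Sp7 by 5.43 ± 0.75 (adjusted p = 0.000677, 0.00159 and 0.0041 in edgeR). Runx2 was at 36.66, 1.638 and 33.19 CPM in ImC, 224.2, 191.7 and 130.1 in MatC, and 375, 353 and 300.4 in Bone. Its groups did not overlap, with log2 fold changes of 2.94 ± 0.81 into MatC (adjusted p = 0.0543 in edgeR) and 0.91 ± 0.76 into Bone (adjusted p = 0.522). In MatC, Runx2 and Sox9 were thus both above 100 CPM in every library.

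From MatC to Bone 1 of the 16 rose and 3 fell, with a median of 0.50 against -0.03 over all genes, where 1.36% of all genes were called higher and 4.69% lower. Dlx3 rose by 2.22 ± 0.53 (adjusted p = 0.0382 in edgeR, lost in 6 of 18). Foxa3 and Foxa2, forkhead factors of maturing chondrocytes, and Runx3 were called lower in Bone. Foxa3 had 5 reads over the 3 Bone libraries and fell by 8.39 ± 0.69 (adjusted p = 0.0002 in edgeR). No Bone read fell on Foxa2, a level at least 175-fold lower (adjusted p = 0.022, lost in 4 of 18). Runx3 fell by 2.99 ± 0.55 (adjusted p = 0.0136, lost in 4 of 18). From ImC to Bone 8 rose and 3 fell, where 14.3% of all genes were called higher and 16.8% lower, the latter near the share that fell in the list. The median was 2.12 against -0.02 over all genes.

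The genes around the members were read from the GENCODE annotation. BC006965, a non-coding transcript on the opposite strand that starts 248 bases from the Sox9 start and runs away from it, was at 117.8, 33.7 and 480.6 CPM in ImC, 19.1, 12.76 and 50.63 in MatC, and 0.3248, 0.4281 and 1.07 in Bone. It varied more among the ImC libraries than Sox9 did, and its highest ImC library was the one with the lowest Sox9. BC006965 fell by 5.44 ± 1.05 from MatC to Bone (adjusted p = 0.017 in edgeR) and fell by 8.40 ± 1.17 from ImC to Bone (adjusted p = 0.00102), with -2.96 ± 0.89 between ImC and MatC (adjusted p = 0.0708). Whether counting used strand is not given in the sources used here, and the library kit does not mark it. Where exons of a member and an antisense gene overlap, it is thus not known how reads were assigned or whether they were dropped.

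At the Sox9 locus the nearest coding genes were Kcnj2, a potassium channel gene 1705403 bases away, and Slc39a11, a zinc transporter gene 457093 bases away. Kcnj2 rose from ImC to MatC (log2 fold change 5.60, adjusted p = 0.0231 in edgeR), from 5 reads in all 3 ImC libraries. Slc39a11 rose from MatC to Bone by 1.46 (adjusted p = 0.0454 in edgeR). Inside Sox5, the annotated antisense and intronic transcripts held few reads, 37 for Sox5os3, 10 for Sox5it and 1 for Sox5os5 over all 9 libraries. The flanking genes Etnk1 and Bcat1 were called in no comparison. Sox6os, antisense to Sox6, had 13 reads in all. The coding gene 1110004F10Rik starts 601 bases from Sox6 on the other strand and was not called, at 114.6, 90.11 and 143.6 CPM in the 3 groups. On the far side, 620489 bases away, Insc rose from MatC to Bone by 3.44 (adjusted p = 0.0279 in edgeR).

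Promoter sequences from RefSeq (GRCm38.p6) were available for Sox5 and Sox6, and are shown because SOX genes are known to act on each other's regulatory DNA. The 250 bases before 1 start of each gene are printed 5′ to 3′ in the sense of the gene, Sox5 from chr6:143947107-143947356 and Sox6 from chr7:116031048-116031297, both on the minus strand and overlapping no annotated exon. Capitals mark matches to ACAATG or ACAAAG, the core letters that SOX HMG boxes bind, on either strand.
Sox5: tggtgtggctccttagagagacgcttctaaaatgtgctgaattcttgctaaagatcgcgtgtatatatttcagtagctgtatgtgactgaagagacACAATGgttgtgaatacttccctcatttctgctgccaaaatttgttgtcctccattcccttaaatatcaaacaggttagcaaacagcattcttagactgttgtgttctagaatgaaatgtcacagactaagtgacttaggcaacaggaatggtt
Sox6: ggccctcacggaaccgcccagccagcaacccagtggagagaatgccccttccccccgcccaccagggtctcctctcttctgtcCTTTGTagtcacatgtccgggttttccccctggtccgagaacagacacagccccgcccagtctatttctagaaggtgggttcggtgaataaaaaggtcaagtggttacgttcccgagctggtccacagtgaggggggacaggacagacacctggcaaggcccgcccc
Both stretches lie inside the annotated gene spans, before an internal start and not the outermost one. The only Sox5 promoter available held 1 match, 154 bases before its start, and the Sox6 promoter shown held 1, 167 bases before its start. Which starts the counted reads came from is not known. Of 6 Sox6 promoters, 5 had a match, and of the 21 promoters found for 16 of the cartilage targets, 1 had a match. The share among all 32851 promoters was 25.2%. A match is a string of letters and not a bound site.

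Last, the genes whose pattern over the 9 libraries was nearest to each member were found by the root mean square (RMS) difference of log2 CPM after each gene's own mean was subtracted, among 7445 genes with a mean of at least 10 CPM. For Sox9 they were Lrp8 (RMS difference 0.187), Fbln2 (0.361), Csgalnact1 (0.368), Loxl3 (0.421) and Enpp2 (0.477), against a median of 2.02 over all genes. Lrp8, a lipoprotein receptor gene, had means of 43.6 ± 10.1, 18.6 ± 7.82 and 1.68 ± 0.353 CPM (SD, n = 3) in ImC, MatC and Bone. Csgalnact1, an enzyme that starts chondroitin sulfate chains, had 168 ± 21.9, 98.6 ± 42.8 and 10.6 ± 1.65 CPM. Col2a1 came 16th (RMS difference 0.602).

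For Sox5 the nearest gene was Sox8 (RMS difference 0.317), followed by Synpo (0.435), Chadl (0.51), Extl1 (0.558) and Scube3 (0.562), against a median of 2.43. Chadl, a chondroadherin-like matrix protein gene, had means of 50 ± 40.1, 9.08 ± 1.28 and 0.6 ± 0.312 CPM (SD, n = 3). For Sox6 they were Tceal3 (0.271), Zfp101 (0.275), Gas2l3 (0.296), Tram2 (0.299) and Nacc2 (0.311), against a median of 1.06. Zfp101, a zinc finger gene, had means of 59 ± 8.27, 25.3 ± 1.94 and 15.4 ± 1.4 CPM (SD, n = 3). No cartilage target or other SOX gene was among the 5 nearest to Sox6.

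The members were not each other's nearest. Sox5 was 44th from Sox9 (RMS difference 0.772) and Sox9 was 24th from Sox5, out of 7444 genes. Sox6 was 354th from Sox9 (1.27) and 507th from Sox5 (1.65), while from Sox6 the others stood 5119th and 6481st, since many genes of small range lie near Sox6. With a minimum of 1 CPM, 4 of the 5 genes nearest to Sox9 stayed among the 5 nearest, 3 of those nearest to Sox5 and 1 of those nearest to Sox6.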

How the data were processed

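Total RNA of 9 libraries, 3 each of immature cartilage, mature cartilage and bone, was sequenced. The deposited tables hold raw counts of reads per gene symbol and a normalized version of them. The submitters' processing notes name Trimmomatic 0.30, TopHat2, Bowtie2, HTSeq, edgeR and the build mm10; annotation and strand setting are not given in the sources used here. In the second table each score is a raw count times 1 factor per library, rounded by the authors, and it served only to read back those factors. No row lacked a gene name.

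Counts were fitted with edgeR 4.0.16 (R 4.3.3): TMM, filterByExpr with a minimum count of 10, quasi-likelihood F test, all 9 libraries and 14257 of 43472 genes, Benjamini-Hochberg adjustment. An SE is the log2 fold change divided by the square root of F. Ratios used a pseudocount of 0.5 and an exact two-sided permutation test. Alternatives were other scalings, no filter, no mitochondrial genes, a replicate block, 2 groups only, leaving out each library, limma 3.58.1 (voom) and DESeq2 1.42.0. The fit was also run on simulated counts, drawn with a spread that depended only on the level of a gene. That run does not hold the spread of single genes in these libraries, and no result here rests on it.

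A count of 3 reads corresponds to 0.0649 CPM over ImC, 0.097 over MatC and 0.0626 over Bone. The members and gene lists were chosen with earlier results of these data known. Text names the members, tested SOX genes, neighbours, the 5 nearest patterns, reference genes, and up to 4 called genes per list, direction and comparison with the smallest p. One such item is not reported here. Coordinates are GENCODE M21 on GRCm38, 1-based. Protein sequences and a Sox9 promoter were not used here.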

Additional observations from a re-analysis of the deposited data

How the results depend on the processing

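Of the 9 differences of the trio, 5 kept their direction and their side of the threshold under all 18 alternatives: Sox5 in the 3 comparisons, Sox9 for Bone against ImC as called, and Sox9 for MatC against ImC as not called. With the library size as the only scaling, Sox6 had log2 fold changes of -2.10 for MatC against ImC (adjusted p = 0.0769 in edgeR), 0.48 for Bone against MatC (0.54) and -1.62 for Bone against ImC (0.089), and Sox9 had -2.47 for Bone against MatC (0.0823). This scaling moved the median of all genes to -0.51, 0.95 and 0.46 in the order MatC against ImC, Bone against MatC, Bone against ImC. For Sox6 in MatC against ImC the log2 fold change was -1.37 with only the 2 groups compared (adjusted p = 0.165 in edgeR) and -1.73 to -1.12 when 1 library was left out. The ratio of Sox5 to Sox9 in Bone against MatC ran from -0.46 to 0.16 when 1 library was left out, with 0.16 without MatC replicate 2 and 0.05 without Bone replicate 2.

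Same-numbered libraries of different groups had correlations of -0.131 to 0.24 in their deviations from the group means, so the numbers were not taken to pair them. With a replicate block Sox6 had a log2 fold change of -1.41 in MatC against ImC (adjusted p = 0.0756 in edgeR), and the count of genes called in that comparison went from 1099 to 725. The block changed the side of the threshold for no other member difference.

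The 1099 genes called for MatC against ImC became 358 with library size only, 1690 with no filter, 205 with only the 2 groups and 2229 with DESeq2, and 355 to 1240 without 1 library. The 863 called for Bone against MatC became 297, 1504 (no filter), 1964 (DESeq2) and 167 to 1702. The 4432 called for Bone against ImC became 2073 with library size only and 2343 to 5408 without 1 library. The share of higher genes among those called went from 70.2% to 53.4%, 22.5% to 40.1% and 46% to 59% with library size only. The cause of these changes was not tested. The fewest reads behind a member's value were 61, for Sox5 in Bone replicate 2.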
